A study of Hordeum vulgare with 12 samples.

Results

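The miRNA families miR160, miR167, miR390 and miR393 (MIR160, MIR167, MIR390 and MIR393 in miRBase), which act in auxin signalling, were followed in barley (Hordeum vulgare), line Rolap, in root and shoot under low and sufficient phosphate (Pi). Their members were all sequences whose matched miRBase names belong only to one of these 4 families. They numbered 482 of the 6279 miRBase-matched sequences of the series, with 254 of 3812 in the root table and 165 in both the root and the shoot table. Of the members, 248 belonged to miR167, 28 to miR390, 39 to miR393 and the others to miR160. The soil of low-Pi plants held 8 mg P per kg, and that of control plants was enriched with a further 60 mg P per kg, given as KH2PO4. Roots and shoots were taken on day 23. The 12 small RNA libraries formed 4 groups of 3 (root control, root low Pi, shoot control, shoot low Pi), with control replicates 16, 17 and 18 and low-Pi replicates 4, 5 and 6. All plants were of the same line, and 1 replicate was 1 pot of 3 plants. The p-values therefore measured the spread between pots. Whole organs were sampled, so a change in the cell types of an organ cannot be told apart from a change per cell.

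As background, auxin is sensed by receptors of the TIR1/AFB group, whose mRNAs are targets of miR393. Auxin response factors (ARFs) carry the signal to the genes, and miR160 and miR167 act on mRNAs of different ARFs. miR390 works in another way: loaded into ARGONAUTE7, it triggers the production of TAS3 trans-acting siRNAs, which in turn act on further ARF mRNAs. Root branching and leaf growth are the processes for which these modules are best known, mostly from Arabidopsis and rice.

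The sequences below carried most reads of each family or the changes described further on, and capitals mark the seed (bases 2 to 8). The T form and A form of miR160 are mature sequences of the 5′ arm. The T form matched MIR160a, MIR160b and MIR160c of Aegilops tauschii and the A form MIR160e of Brachypodium distachyon. Precursor sequences 1 and 2 of miR160 matched hairpins (MIR160e of Brachypodium distachyon and MIR160f of rice). They were annotated as precursor matches and not as mature sequences, although sequence 2 overlaps the A form. Precursor sequence 2 was singled out after its values were seen.
miR160 T form: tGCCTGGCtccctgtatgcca
miR160 A form: tGCCTGGCtccctgaatgcca
miR160 precursor sequence 1: cTGGTTGGcattgagggagtc
miR160 precursor sequence 2: cTCCCTGAatgccatccgaga
The miR160 T and A forms have the same seed, and the only difference between them is T15A, counted from the 5′ end with the T form first.

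The miR167 forms are shown because the organs differed in which of them they held. The A form matched MIR167b and MIR167d and the C form MIR167f, all of Aegilops tauschii, whereas the 21-nt form is the stretch common to both.
miR167 A form: tGAAGCTGccagcatgatctga
miR167 C form: tGAAGCTGccagcatgatctgc
miR167 21-nt form: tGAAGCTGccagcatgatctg
miR167 3′ form: aGGTCATGctggagtttcatc
miR167 shortened form: gAAGCTGCcagcatgatctgc
miR167 extended form 1: aCTGAAGCtgccagcatgatc
miR167 extended form 2: aCTGAAGCtgccagcatgatct
The A, C and 21-nt forms share 1 seed. The shortened form is the C form without its first base. The A and C forms differ only by A22C, outside the seed. The extended forms begin 2 bases upstream of the 21-nt form and so present another seed. The 3′ form comes from the opposite arm of the hairpin.

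For miR390 the 21-nt 5′-arm sequence held most reads, and for miR393 the reads lay in short sequences.
miR390 main form: aAGCTCAGgagggatagcgcc
miR390 22-nt form: aAGCTCAGgagggatagcgcct
miR390 3′ form: gCTATCTAtcctgagctcc
miR393 form 1: aAGGGATCgcattgatct
miR393 form 2: cAAAGGGAtcgcattgat
miR393 form 3: cCAAAGGGatcgcattgat
None of the 39 miR393 sequences analysed here was annotated as a full mature sequence, so miR393 values cover shortened and precursor-matched sequences. No member was annotated to a barley entry of miRBase, and the names above are those of entries in other plants.

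Libraries held 7470998 to 17614581 reads of 18 to 25 nt, and all 3 low-Pi root libraries were deeper than the root controls. Sequences matching miRBase made up 1.74% ± 0.151 (SD, n = 3) of root control reads, 1.12% ± 0.157 of root low-Pi reads, 6.08% ± 0.477 of shoot control reads and 5.41% ± 0.413 of shoot low-Pi reads. The smaller share in low-Pi roots enters every root comparison on the scale of all reads, and its part in those comparisons was not tested. miR399 and miR827, which respond to Pi starvation in plants, were called higher under low Pi in both organs. miR399 had a log2 change of 1.81 in root and 4.19 in shoot, and miR827 one of 1.68 and 3.31 (edgeR quasi-likelihood test, Benjamini-Hochberg adjusted p between 3.7e-06 and 3.4e-05). Shoot low-Pi replicate 6 stood apart from replicates 4 and 5 (chi-square per degree of freedom 130 and 158, against 7.44 to 44.7 for the other replicate pairs). Shoot calls are given without it where that changed them, and overlaps between groups that rested on it alone are marked.

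All 4 families were more abundant in shoot than in root. miR167 was by far the most abundant: it had 363, 643 and 600 RPM (reads per 1000000 reads of a library) in root control replicates 16, 17 and 18, and 4917, 3838 and 3272 RPM in the shoot controls. miR160 had 5.86, 10.01 and 12.05 RPM in root controls against 121, 119 and 77.9 RPM in shoot controls. miR390 had 4.64, 8.40 and 5.49 RPM in root controls against 81.8, 76.7 and 83.0 RPM in shoot controls. None of the 4 overlapped between the organs, but how many of all families were separated in this way was not counted. The order of the mean levels (miR167, miR160, miR390, miR393) was the same in both organs. Between miR160 and miR390, however, the control ranges overlapped in both organs. miR393 was the rarest family, with 1.40, 1.85 and 2.54 RPM in root controls, which is 15 to 19 reads per library, and 34.8, 26.2 and 20.1 RPM in shoot controls.

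Tested across all 12 libraries, each of the 4 was called higher in shoot under control Pi. The log2 differences were 3.51 ± 0.32 (SE) for miR160, 2.91 ± 0.25 for miR167, 3.71 ± 0.30 for miR390 and 3.82 ± 0.36 for miR393 (edgeR adjusted p at most 2.9e-09). Of 81 families tested, 66.7% were called higher in shoot, and their median difference was 1.96. The 4 families thus exceeded that median by 0.95 (miR167) to 1.87 (miR393). With TMM factors, which centre the bulk of sequences, all 4 were still called higher in shoot, with log2 differences of 1.40 to 2.32. For miR160 the size rested on precursor matches: without them it was 2.36 where the median was 2.40.

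Under low Pi the organ difference was 4.19 ± 0.32 for miR160, 2.52 ± 0.25 for miR167, 3.93 ± 0.30 for miR390 and 5.13 ± 0.39 for miR393, all called (edgeR adjusted p at most 2.0e-09). Among all families 71.6% were called higher in shoot, and the median was 2.62. miR167 fell just below that median, by 0.10, and miR160 did so without precursor matches (2.89 where the median was 2.98). For miR167 the organ call was lost with TMM factors (0.19, edgeR adjusted p = 0.428) and with the miRBase total (0.25, edgeR adjusted p = 0.361). The sign for miR167 turned with DESeq2 (log2 difference -0.12, adjusted p = 0.624).

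**Figure D1:**
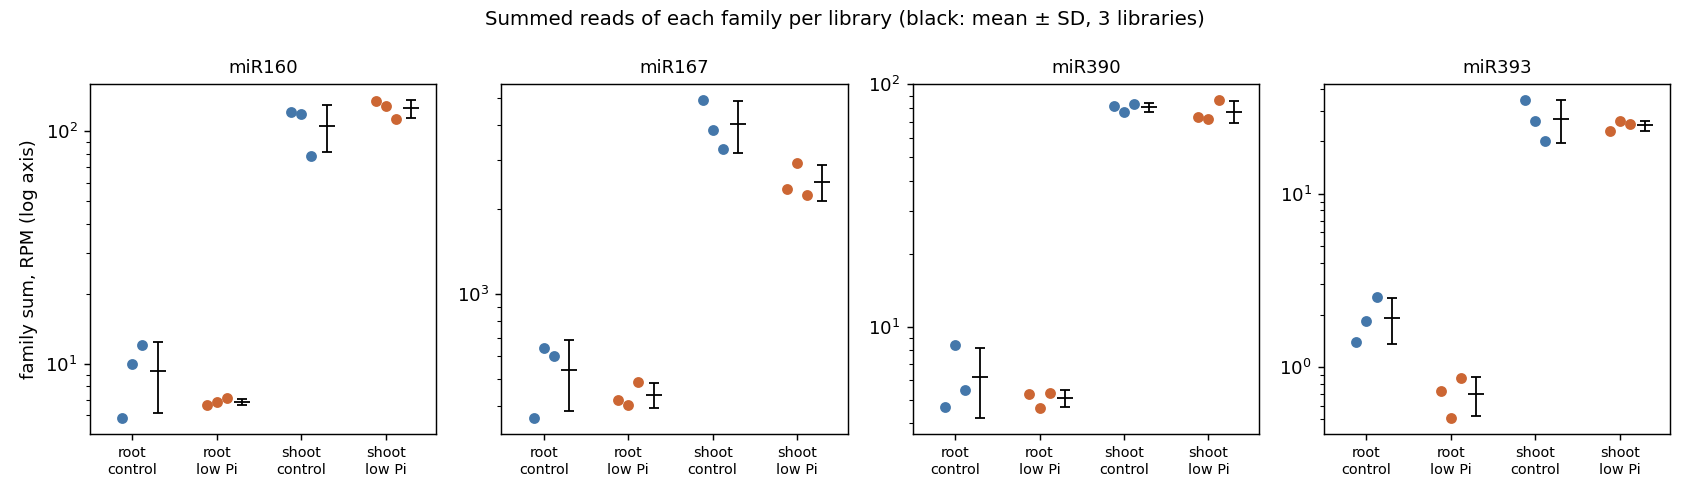
Summed RPM of each family (log axis) in each library, by organ and Pi supply, with points for libraries and black bars for the mean ± SD of 3 libraries. All shoot libraries lie above all root libraries for each family. The shoot low-Pi libraries of miR167 (2241 to 2919 RPM) lie below its shoot controls (3272 to 4917 RPM), and the root low-Pi libraries of miR393 lie below its root controls.

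In root, low Pi was set against control to ask whether these families respond to Pi starvation in the organ that takes it up. miR160 had 6.67, 6.87 and 7.10 RPM in low-Pi replicates 4, 5 and 6, a range inside that of its controls. miR167 had 421, 404 and 487 RPM, and miR390 had 5.27, 4.60 and 5.31 RPM. Both of these overlapped their controls too. None of the 3 was called: the log2 changes were -0.42 ± 0.35 (SE) for miR160, -0.29 ± 0.26 for miR167 and -0.28 ± 0.36 for miR390 (edgeR adjusted p = 0.329, 0.358 and 0.498). The median over all 53 families tested was -0.42. Measured against that median, miR160, miR167 and miR390 differed by 0.00, 0.13 and 0.14. With TMM factors their log2 changes became 0.25, 0.38 and 0.38, and none was called. The control libraries were the more variable group for miR160, in which the low-Pi SD was 0.216 RPM and the control SD 3.15 RPM.

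miR393 was the member of the 4 that was called in root. It had 0.733, 0.511 and 0.862 RPM in low-Pi roots, below all 3 controls. In reads this was 11, 9 and 13 against 16, 15 and 19 in the controls, although the low-Pi libraries were deeper. The log2 change was -1.43 ± 0.46 (edgeR adjusted p = 0.0105), the lowest but 2 of the 53 families, of which 30.2% were called lower and 7.55% higher. No overlap in this direction was seen in 24.5% of them. The change was 1.01 below the median of all families. Its sign stayed negative with every scaling, but the call did not hold: the log2 change was -0.79 with TMM factors (adjusted p = 0.141), -0.81 with the miRBase total (adjusted p = 0.257) and -1.11 with DESeq2 (adjusted p = 0.0688). It was also lost without control replicate 18 (edgeR adjusted p = 0.139) or low-Pi replicate 5 (edgeR adjusted p = 0.0914).

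A single sequence held much of the miR393 reads of control roots, and it was singled out after its values were seen. It differs from miR393 form 1 only in its last base.
miR393 root form: aAGGGATCgcattgatcc
This sequence had 7, 6 and 7 reads in root controls and 3, 2 and 3 reads in low-Pi roots. In shoot it had 0 reads in all 3 control libraries, which allows up to 0.224 to 0.282 RPM, and 2, 2 and 0 reads under low Pi. miR393 form 1 showed the opposite organ pattern, with 2 to 5 reads in root controls and 57 to 126 reads in shoot controls. These counts are near the floor of 3 reads in root and did not pass the filter for a test on all 6 root libraries. Without control replicate 16 the root form passed the filter, but only through the control libraries, where it is high. Its call as lower in that fit is therefore not taken as a result.

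In shoot, miR167 was the family of the 4 with the lowest low-Pi values relative to control. Its 2369, 2919 and 2241 RPM in low-Pi replicates 4, 5 and 6 all lay below the 3 controls. The log2 change was -0.68 ± 0.21, rank 5 from the lowest of 65 families, and was not called (edgeR adjusted p = 0.102). No overlap in this direction was seen in 9.23% of the families tested. By DESeq2 the change was -0.74 with an adjusted p of 0.00106, which passed the threshold, and leaving out each library in turn gave edgeR adjusted p between 0.0752 and 0.310. The median over all shoot families was 0.04. With TMM factors the change was -0.68 and with the miRBase total -0.49, neither called by edgeR (adjusted p = 0.0598 and 0.191).

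The other 3 families showed smaller low-Pi differences in shoot. miR160 had 135, 128 and 113 RPM under low Pi, miR390 had 73.1, 72.1 and 86.6 RPM, and miR393 had 22.9, 26.1 and 25.1 RPM. Each overlapped its controls, but miR160 and miR390 did so only through low-Pi replicate 6. The log2 changes were 0.25 ± 0.24, -0.06 ± 0.20 and -0.13 ± 0.26 (edgeR adjusted p = 0.648, 0.951 and 0.883), and those of miR390 and miR393 turned positive with the miRBase total (0.10 and 0.05). No family of the 65 was called lower in shoot by edgeR, 4 were lower at an unadjusted p under 0.05, and 4.62% were called higher.

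The difference between the organs in the low-Pi change was tested as an interaction. It was 0.67 ± 0.41 for miR160, -0.38 ± 0.33 for miR167, 0.22 ± 0.39 for miR390 and 1.30 ± 0.50 for miR393, and none was called (edgeR adjusted p = 0.345, 0.515, 0.764 and 0.0856). The median of 81 families was itself 0.67, and 16.0% were called higher in this direction. miR167 lay 1.06 below that median. It was called with TMM factors (-1.22, adjusted p = 0.0126) and with DESeq2 (-0.96, adjusted p = 0.0137). miR393 was called without root control replicate 16 (1.51, edgeR adjusted p = 0.0456). With TMM factors and the miRBase total it was smaller and not called (0.49 and 0.87, edgeR adjusted p = 0.633 and 0.499). The same was so with DESeq2 (0.78, DESeq2 adjusted p = 0.401). Without precursor matches the miR393 value was 0.43 (edgeR adjusted p = 0.835), below the median of 0.67 over all families.

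**Figure D2:**
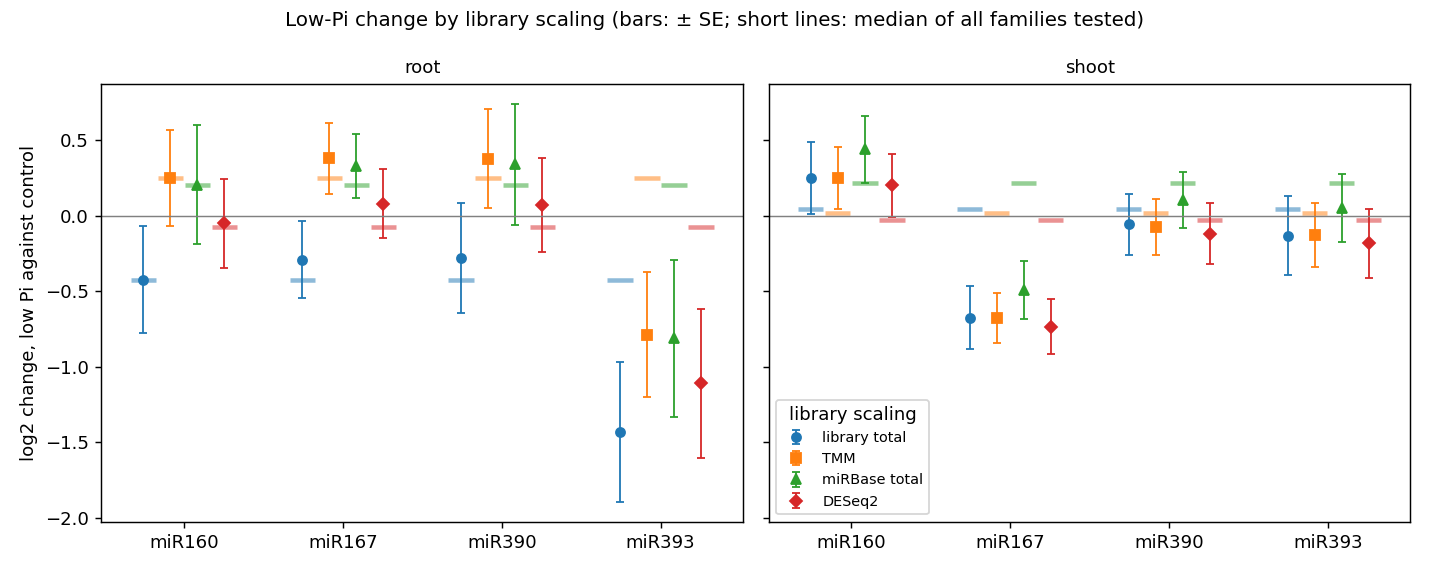
Log2 change of each family under low Pi against control in root and shoot (y axis) with 4 ways of scaling the libraries, with bars for ± SE and short lines for the median of all families tested with that scaling. In root the values of miR160, miR167 and miR390 stay close to the median line as it moves from -0.42 to 0.25, and miR393 lies below it with each scaling. In shoot miR167 lies below the line with each scaling.

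Single sequences were then tested, since a family sum can hide unequal members. In root, 20 member sequences had enough reads to be tested (18 of miR167, and 1 each of miR160 and miR390). Of these 3 were called lower and 0 higher, against 30.9% of the 285 sequences tested that were called lower and 5.26% called higher. None of these 3 calls was kept with TMM factors, the miRBase total or DESeq2, each of which called 1 other member, the miR167 21-nt form, in the opposite direction. Without control replicate 16, 7 were called lower, of which 2 were among the 3, and without control replicate 18 the count was 0. Their median log2 change was -0.36, where that of all sequences was -0.66. In shoot 60 member sequences were tested, and 1 was called lower and 0 higher, against backgrounds of 1.24% lower and 9.30% higher among 484 sequences. With TMM factors 3 were called lower, and without control replicate 18 it was 2. Without low-Pi replicate 6, 1 was called lower and 2 higher (the extended miR167 forms). The count was 0 without control replicate 16, low-Pi replicate 4 or low-Pi replicate 5. The unadjusted p was under 0.05 for 12 of the 60, all of miR167, beside 22.9% of all sequences. Median log2 changes in shoot were -0.41 over the 32 miR167 sequences, 0.28 over the 12 of miR160, -0.26 over the 7 of miR390 and -0.21 over the 9 of miR393, beside 0.07 over all sequences.

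The miR167 3′ form was called lower under low Pi in both organs. In root it had 21.6, 29.2 and 39.9 RPM in controls 16, 17 and 18, and 15.5, 13.3 and 11.9 RPM in low-Pi replicates 4, 5 and 6. In shoot it had 240, 166.95 and 182 RPM in the controls and 97.4, 89.3 and 109 RPM under low Pi. The groups did not overlap in either organ, as was so in this direction for 40.7% of sequences tested in root and 11.4% in shoot. The log2 change was -1.15 ± 0.31 in root (edgeR adjusted p = 0.0098) and -0.996 ± 0.24 in shoot (edgeR adjusted p = 0.0199).

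The shoot call of the 3′ form held with TMM factors, the miRBase total and DESeq2 (log2 changes of -1.001, -0.83 and -1.01) but was lost without control replicate 16 (adjusted p = 0.124), low-Pi replicate 4 (edgeR adjusted p = 0.0731) or low-Pi replicate 5 (edgeR adjusted p = 0.078). The root call was lost with these 3 scalings, where the log2 change lay between -0.52 and -0.49, and without control replicate 18 (edgeR adjusted p = 0.0601). A second 3′-arm sequence, of MIR167c, was called lower in root only on the scale of all reads.
miR167 MIR167c 3′ form: aTCATGACtgacagcctcatt
It had 22, 12 and 17 reads in root controls against 18, 7 and 7 under low Pi, a log2 change of -1.46 ± 0.48 (edgeR adjusted p = 0.0317). With TMM factors this was -0.84 (adjusted p = 0.238). The call was also lost with the miRBase total, with DESeq2, without a filter on low counts, and without control replicate 16 or 18 or low-Pi replicate 5 or 6. In shoot its log2 change was 0.42 ± 0.31 (edgeR adjusted p = 0.507).

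As a share of the family, the 3′ arm made up 7.91, 6.27 and 8.45% of miR167 reads in root controls and 4.80, 4.17 and 3.13% in low-Pi roots. This ratio does not depend on the library total. The groups did not overlap (two-sided exact permutation p = 0.1, the smallest possible with 3 against 3). In shoot the shares were 5.36% ± 0.652 and 4.57% ± 1.02 (n = 3 each), and they overlapped only through low-Pi replicate 6. Set against the A form alone, there were 8.39 ± 1.89 reads of the 3′ form per 100 in root controls and 4.36 ± 0.935 in low-Pi roots, and 17.6 ± 0.921 and 12.3 ± 3.95 in shoot (n = 3 each). In shoot low-Pi replicate 6 (16.7 per 100) reached the control range (16.6 to 18.2 per 100), and replicates 4 and 5 did not (11.2 and 9.02 per 100). Set against the C form alone, the Pi groups overlapped in both organs. There were 50.2 ± 6.47 reads of the 3′ form per 100 in root controls and 43.1 ± 12.8 in low-Pi roots (exact permutation p = 0.4). In shoot there were 8.44 ± 2.01 and 7.41 ± 1.57 (exact permutation p = 0.6).

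The miR167 C form was the most abundant member sequence in shoot. It had 3002, 2496 and 1713 RPM in shoot controls and 1192, 1593 and 1286 RPM under low Pi, with no overlap, and a log2 change of -0.82 ± 0.25 that was not called (edgeR adjusted p = 0.0556). With TMM factors, with DESeq2 and without control replicate 18 it was called (adjusted p = 0.0311, 0.0166 and 0.0319, the last by edgeR). In root it had 37.4, 62.3 and 86.3 RPM in controls and 28.7, 28.8 and 40.9 RPM under low Pi. These ranges overlapped by low-Pi replicate 6. The root log2 change of -0.92 ± 0.32 was called (edgeR adjusted p = 0.0389), but with TMM factors it was -0.24 (edgeR adjusted p = 0.622). That call was also lost with the miRBase total, DESeq2 and no filter, and without control replicate 17 or 18 or low-Pi replicate 4 or 5.

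The miR167 A form was the most abundant member sequence in root, and its low-Pi values overlapped the controls in both organs. It had 242, 463 and 401 RPM in root controls, 308, 280 and 361 RPM in low-Pi roots, 1324, 918 and 1100 RPM in shoot controls and 867, 990 and 652 RPM in low-Pi shoots. The log2 changes were -0.22 ± 0.27 in root, a sign that turned with TMM factors (0.45), and -0.41 ± 0.24 in shoot (edgeR adjusted p = 0.560 and 0.352).

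On the scale of all reads, the 21-nt form moved the other way from the longer forms in root. It had 27.3, 33.2 and 25.6 RPM in root controls and 36.9, 52.1 and 41.3 RPM in low-Pi roots, with no overlap (6.67% of root sequences did not overlap in this direction). In shoot it had 49.9, 38.5 and 54.3 RPM in controls and 35.6, 34.4 and 25.6 RPM under low Pi, also with no overlap but in the opposite direction. The log2 changes were 0.60 ± 0.28 in root and -0.58 ± 0.26 in shoot, and neither was called (edgeR adjusted p = 0.102 and 0.201). In root it was called higher with TMM factors (1.26, adjusted p = 0.00642), with the miRBase total (1.27, adjusted p = 0.0157) and with DESeq2 (1.24, adjusted p = 0.00114). With these scalings the root change of the A form was positive as well. Relative to the whole family, the 21-nt form changed by 0.88 in root and was not called (edgeR adjusted p = 0.224). The 21-nt form was 7.52, 5.17 and 4.26% of miR167 reads in root controls and 8.75, 12.9 and 8.49% in low-Pi roots (exact permutation p = 0.1). In shoot it was 1.23% ± 0.376 and 1.28% ± 0.199 (n = 3 each).

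**Figure D3:**
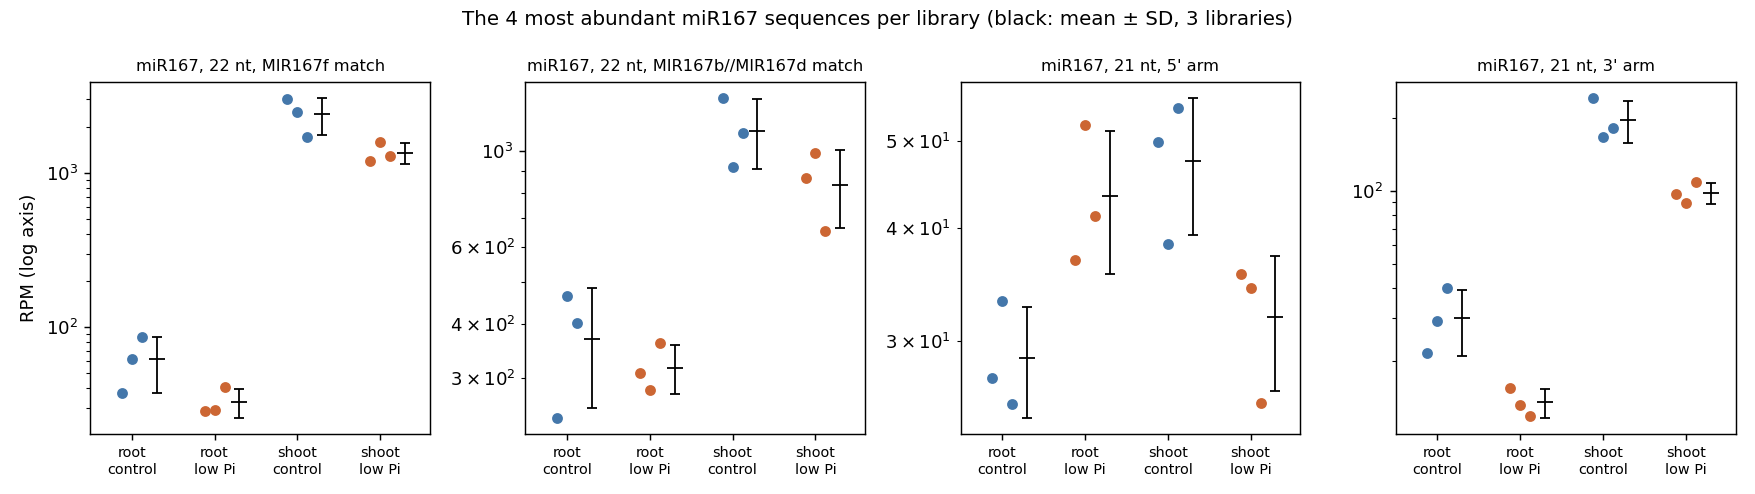
RPM (log axis) of the 4 most abundant miR167 sequences in each library, by organ and Pi supply, named by the matched miRBase entry (the MIR167f match is the C form and the MIR167b//MIR167d match the A form), with points for libraries and black bars for the mean ± SD of 3 libraries. The 3′-arm sequence lies lower under low Pi in both organs. The 21-nt 5′-arm sequence lies higher in low-Pi roots (36.9 to 52.1 RPM) than in root controls (25.6 to 33.2 RPM) and lower in low-Pi shoots than in shoot controls.

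Root and shoot differed in which 22-nt miR167 form they held. Of the A and C forms together, the C form took 13.4, 11.8 and 17.7% in root controls and 69.4, 73.1 and 60.9% in shoot controls. Under low Pi it took 8.53, 9.31 and 10.2% in root and 57.9, 61.7 and 66.3% in shoot. The organs did not overlap under either Pi supply (two-sided exact permutation p = 0.1 each). Low-Pi roots also lay below control roots without overlap (exact permutation p = 0.1), whereas the shoot groups overlapped (exact permutation p = 0.3). Sequences shortened at the 5′ end by 1 to 3 bases, which these shares do not include, gave the same order: of those ending in C or A, 16.7% ± 2.15 ended in C in root controls, 11.7% ± 1.46 in low-Pi roots, 70.7% ± 8.60 in shoot controls and 61.8% ± 4.45 in low-Pi shoots (n = 3 each). The shortened form itself had 44.6, 30.6 and 25.8 RPM in shoot controls and 17.7, 25.3 and 19.7 RPM under low Pi, without overlap, and 0.511 to 1.98 RPM over the 6 root libraries, where the Pi groups overlapped. Its log2 changes were -0.69 ± 0.28 in shoot and -0.76 ± 0.51 in root, and neither was called (edgeR adjusted p = 0.163 and 0.254). The forms ending in G and T were rare, with group means from 0.998 to 27.2 RPM.

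miR160 showed the same kind of organ difference in its mature forms. Of the T and A forms together, the A form took 15.2, 2.22 and 4.65% in root controls and 64.7, 62.1 and 57.4% in shoot controls, and 3.45, 7.02 and 1.59% and 53.4, 51.5 and 63.4% under low Pi in root and shoot. The organs again did not overlap (exact permutation p = 0.1 for each Pi supply), while these shares overlapped between the Pi groups within each organ. In shoot that overlap came only through low-Pi replicate 6. In reads the root values rest on 1 to 5 of the A form per library. The T form had 2.45, 5.44 and 5.49 RPM in root controls and 11.2, 13.2 and 10.8 RPM in shoot controls, whereas the A form had 0.437, 0.124 and 0.268 RPM in root and 20.5, 21.7 and 14.6 RPM in shoot. Low-Pi shoots had 14.7, 15.9 and 13.3 RPM of the T form, above all controls, as was so for 16.7% of shoot sequences. Its log2 change of 0.31 ± 0.25 was not called (edgeR adjusted p = 0.522). The A form overlapped its shoot controls (log2 change -0.01, edgeR adjusted p = 0.991).

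In shoot the most abundant miR160 sequence was not a mature form, whereas in root the T form exceeded it in every library. Precursor sequence 1 had 58.5, 50.3 and 27.5 RPM in shoot controls and 71.2, 64.1 and 45.1 RPM in low-Pi shoots, above both mature forms in every shoot library. In root it had 0.454 to 0.995 RPM over the 6 libraries. Its low-Pi change in shoot was 0.40 ± 0.31 on the log2 scale and was not called (edgeR adjusted p = 0.514). Precursor sequence 2 had 6.71, 6.37 and 6.30 RPM in shoot controls and 5.80, 3.12 and 5.87 RPM under low Pi, without overlap. In this direction 11.4% of shoot sequences did not overlap. Its log2 change of -0.39 was not called (edgeR adjusted p = 0.543).

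Placed antiparallel to each other, precursor sequences 1 and 2 paired at 16 of 19 overlapping positions (15 Watson-Crick and 1 G-U), with 2 bases left over at each 3′ end, which is the geometry of a duplex cut by a Dicer-like enzyme. Precursor sequence 2 starts 7 bases downstream of the start of the miR160 A form and shares 14 bases with it. The 2 precursor sequences together made up 48.4% ± 5.32 of miR160 reads in shoot controls and 51.5% ± 5.95 in low-Pi shoots, against 9.13% ± 3.81 and 10.5% ± 3.97 in root (n = 3 each; the organs did not overlap, exact permutation p = 0.1 for each Pi supply). Of the pair, sequence 1 took 86.6% ± 4.56 in shoot controls and 92.1% ± 3.45 in low-Pi shoots. No genome was used here, so whether these reads come from a MIR160 locus of barley was not tested.

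The 3′ arm of miR160 held few reads. Its most abundant sequence had 1.27, 1.71 and 0.846 RPM in shoot controls, 1.37, 3.53 and 1.51 RPM in low-Pi shoots and 0 to 4 reads per root library.
miR160 3′ form: gCGTGCAAggagccaagcatg
In total the 3′ arm made up 1.98% ± 0.745 and 2.56% ± 0.768 of miR160 reads in control and low-Pi shoots (n = 3 each), which overlapped. In root it made up 6.83% ± 5.43 and 2.14% ± 1.07 (n = 3 each), which also overlapped.

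**Figure D4:**
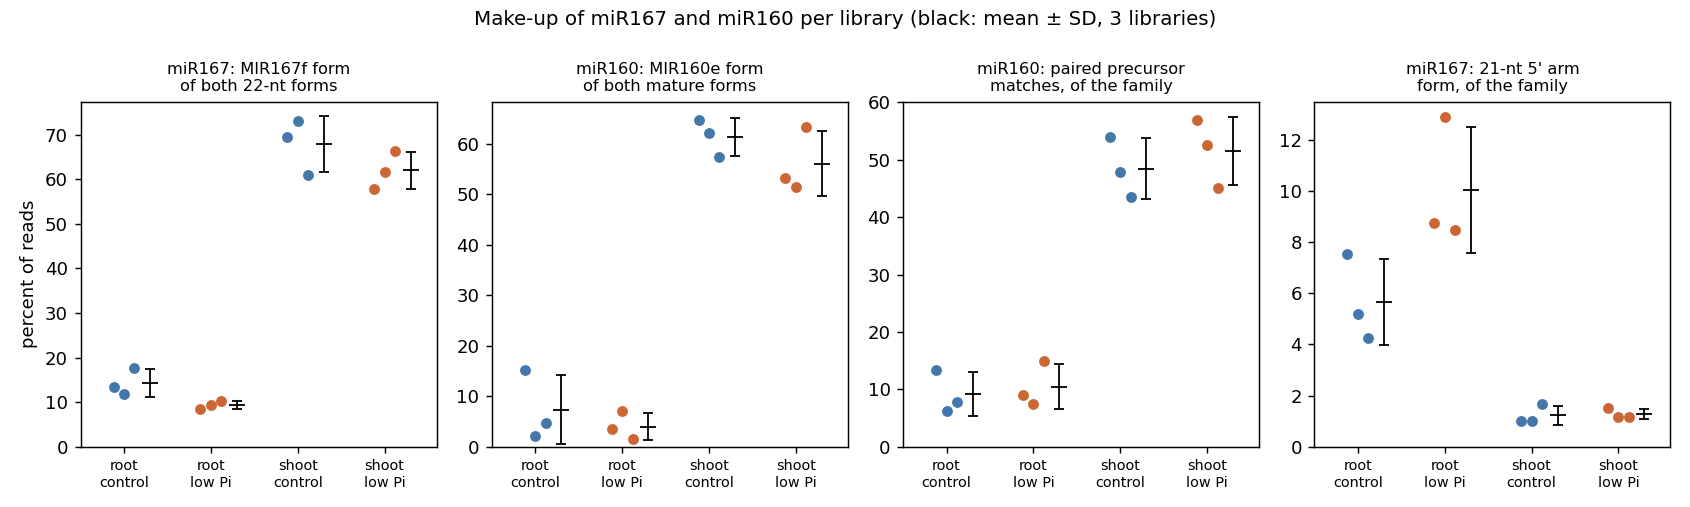
Percent of reads taken by 4 kinds of sequence in each library (y axes from 0), by organ and Pi supply, with points for libraries and black bars for the mean ± SD of 3 libraries. The MIR167f (C) form, the MIR160e (A) form and the paired miR160 precursor sequences all take larger shares in every shoot library than in any root library. The 21-nt miR167 form takes 8.49 to 12.9% of miR167 reads in low-Pi roots and 4.26 to 7.52% in control roots.

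miR390 was the most uniform of the 4. Its main form made up 83.2% ± 1.42 of the family's reads in shoot controls and 85.0% ± 1.27 in low-Pi shoots, and 72.2% ± 9.32 and 78.8% ± 1.93 in root (n = 3 each). It had 66.9, 65.0 and 68.9 RPM in shoot controls and 61.7, 62.3 and 72.9 RPM under low Pi. In root it had 3.06, 5.69 and 4.55 RPM in controls and 4.20, 3.52 and 4.25 RPM under low Pi. Both pairs of groups overlapped, in shoot only through low-Pi replicate 6. The log2 changes were -0.03 ± 0.22 in shoot and -0.14 ± 0.34 in root (edgeR adjusted p = 0.957 and 0.758). The root sign turned with TMM factors (0.52) and that in shoot with the miRBase total (0.13).

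The opposite arm of miR390 took a larger share in root than in shoot under control Pi. It made up 18.7% ± 6.40 of miR390 reads in root controls and 9.17% ± 2.64 in low-Pi roots (n = 3 each), with no overlap between them (exact permutation p = 0.1). These are 5 to 17 reads per library. In shoot the shares were 4.99% ± 0.614 and 5.64% ± 2.17 (n = 3 each). The organs did not overlap under control Pi (exact permutation p = 0.1) and overlapped under low Pi only through shoot low-Pi replicate 6 (exact permutation p = 0.2). The miR390 3′ form had 0.350, 1.11 and 0.402 RPM in root controls and 1.49, 2.04 and 1.32 RPM in shoot controls. The miR390 22-nt form, which carries 1 further base at the 3′ end, had 4.99, 3.18 and 4.51 RPM in shoot controls and 2.87, 3.53 and 3.12 RPM under low Pi, which overlapped.

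miR393 reads were short in both organs. Sequences of 18 to 20 nt held 91.4% ± 0.702 of its reads in shoot controls and 93.1% ± 2.18 in low-Pi shoots (n = 3 each), where miR160, miR167 and miR390 had 2.81 to 10.7% in the same length class. miR393 form 1 had 9.39, 9.06 and 5.36 RPM in shoot controls and 8.33, 9.20 and 9.18 RPM under low Pi. Form 2 had 8.20, 4.49 and 6.48 RPM in controls and 3.82, 4.44 and 6.34 RPM under low Pi, and form 3 had 4.32, 3.84 and 2.82 RPM and 2.59, 4.36 and 2.56 RPM. None of the 3 was called. Form 1 took 27.0, 34.6 and 26.6% of miR393 reads in shoot controls and 36.4, 35.2 and 36.6% under low Pi, without overlap (exact permutation p = 0.1).

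Lengths separated the other families as well. miR167 was a 22-nt family, with 81.7% ± 2.11 of reads at 22 nt in root controls and 88.8% ± 1.41 in shoot controls, and 13.7% ± 1.76 and 7.75% ± 1.11 at 21 nt (n = 3 each). Under low Pi the 22-nt shares were 81.0% ± 2.88 in root and 88.7% ± 0.959 in shoot, which overlapped the controls. miR160 and miR390 were 21-nt families, with 92.7% ± 0.863 and 83.9% ± 1.08 of their shoot control reads at 21 nt. In shoot controls 90.1% ± 1.07 of miR167 reads began with T and 92.1% ± 0.256 of miR390 reads with A. Root controls had 87.6% ± 0.917 and 79.1% ± 8.01 (n = 3 each), and the organs did not overlap (exact permutation p = 0.1 each). With low Pi the organs did not overlap for miR390 and overlapped for miR167 (exact permutation p = 0.1 and 0.2). The first bases of miR160 and miR393 differed more between the organs. T began 68.2% ± 5.62 of miR160 reads in root controls and 38.6% ± 3.91 in shoot controls. A began 70.0% ± 12.3 of miR393 reads in root controls and 46.7% ± 5.20 in shoot controls (n = 3 each, no overlap, exact permutation p = 0.1 for both families). Under low Pi the organs did not overlap for miR160 either, and overlapped for miR393 (exact permutation p = 0.1 and 1).

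**Figure D5:**
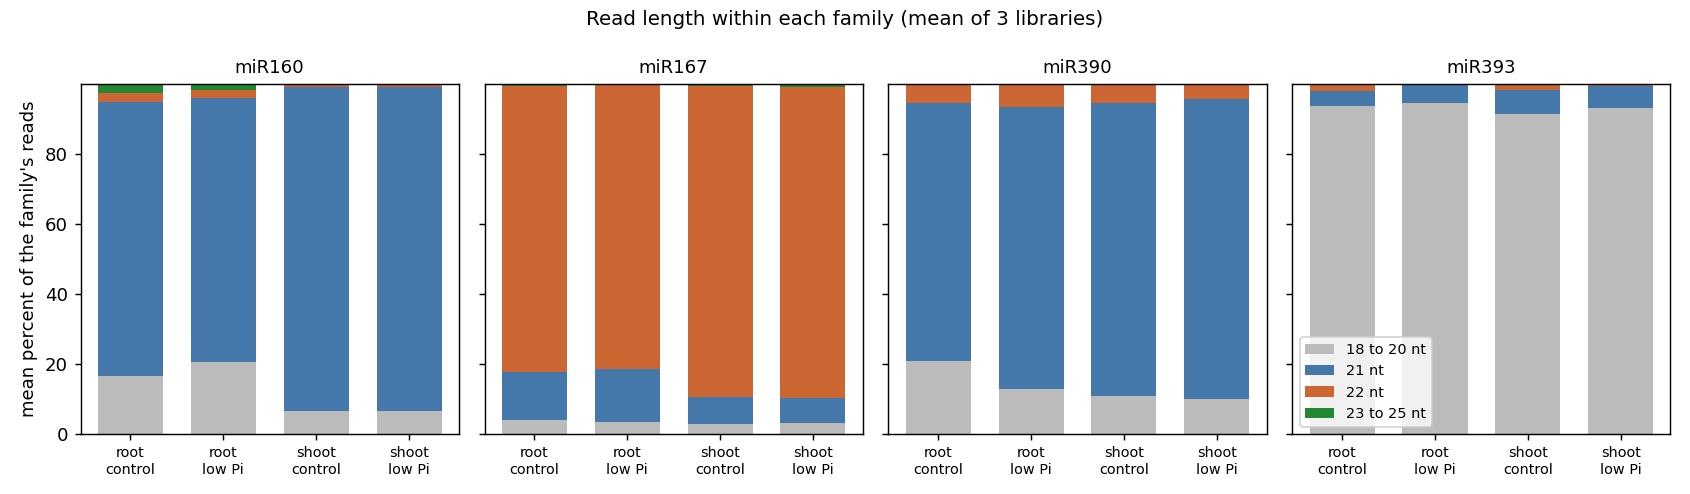
Mean percent of each family's reads in 4 length classes (bars stacked to the family total) in root and shoot under control and low Pi, as means of 3 libraries. Most miR167 reads are of 22 nt, most miR160 and miR390 reads of 21 nt, and most miR393 reads of 18 to 20 nt, under both Pi supplies.

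Use of a sequence within its family was tested as its log2 change relative to that of the whole family, which does not depend on the library total. In root 18 member sequences (all miR167) were tested and 0 were called by edgeR, with 3 at an unadjusted p under 0.05, where 1.09% of 275 sequences were called higher and 2.91% lower. In shoot 60 were tested, and 2 were called higher and 0 lower, against 1.90% higher and 0.211% lower among 474 sequences. Both are the extended miR167 forms. Extended form 1 had 3.50, 2.69 and 1.97 RPM in shoot controls and 6.49, 5.92 and 3.12 RPM under low Pi. Extended form 2 had 1.12, 1.47 and 1.504 RPM in controls and 3.62, 3.62 and 1.99 RPM under low Pi, without overlap (16.7% of shoot sequences did not overlap in this direction), while form 1 overlapped by low-Pi replicate 6. Relative to the family they changed by 1.60 and 1.86 on the log2 scale (edgeR adjusted p = 0.0105 and 0.00987).

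Both calls on the extended forms held without shoot low-Pi replicate 6 (edgeR adjusted p = 0.000737 and 0.000888) and without low-Pi replicate 5 (both 0.048). They were lost without any 1 of the other 4 shoot libraries, where the edgeR adjusted p lay between 0.0582 and 0.242. All 5′-arm sequences that begin 2 bases upstream made up 0.111 to 0.121% of miR167 reads in shoot controls and 0.253 to 0.444% in low-Pi shoots, and those beginning 1 base upstream 0.603 to 0.643% and 0.887 to 0.980%. Neither pair overlapped (exact permutation p = 0.1 each). In root the sequences that begin 1 base upstream showed the opposite order, with 0.231 to 0.401% in controls and 0.150 to 0.183% under low Pi (exact permutation p = 0.1). The main start held 89.9% ± 1.08 and 89.8% ± 0.979 of miR167 reads in control and low-Pi shoots (n = 3 each).

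The families most like each of the 4 in their pattern over the 4 groups were found by the root mean square difference of centred log2 levels, among 34 families with a mean of at least 10 RPM. For miR160 they were miR390 (0.12) and miR444 (0.13), and for miR390 miR444 (0.12) and miR160 (0.12). miR167 was nearest to miR7757 (0.32) and miR156 (0.34), and miR393 to miR396 (0.29) and miR160 (0.43). These are descriptions over 4 group means.

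Of the 6 other families with roles in auxin response or root and leaf development (miR164, miR165, miR166, miR171, miR396 and miR847), 5 were tested. No family of the matched sequences was named miR847. In root 4 were called lower under low Pi and 0 higher, where 30.2% of all families were called lower, and their median log2 change was -0.72 beside -0.42 over all families. With TMM factors 0 were called and the median was -0.03. In shoot the edgeR test called 0 of the 5 (2 before adjustment, at p under 0.05), and the median was -0.02. Under control Pi 4 of the 5 were called higher in shoot than in root, and under low Pi all 5 were, beside 66.7% and 71.6% of all families. Their medians of 1.44 and 1.43 lay below those of all families (1.96 and 2.62). These organ directions did not hold with TMM factors, where 2 were called higher and 2 lower under control Pi, and 1 higher and 3 lower under low Pi.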

How the data were processed

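Small RNAs of barley roots and shoots were made into TruSeq libraries, size-selected on a gel and read as single reads on a HiSeq instrument. The authors trimmed adapters and bases (quality limit 0.02) in CLC Genomics Workbench (version not given in the sources used here), kept reads of 18 to 25 nt, and matched them without mismatches and by strand to miRBase release 22. The deposited counts are reads of 1 distinct sequence in 1 library, and the deposited RPM values are counts per 1000000 reads. Library totals were recovered as counts divided by RPM. A floor of 3 reads was 0.170 to 0.402 RPM; it covers counting error alone, since PCR copies are not independent molecules. The tables hold sequences down to 1 read, so a sequence of the other table only was taken as 0.

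Counts, and their sums by family, were tested with edgeR 4.0.16 (R 4.3.3; glmQLFit, glmQLFTest) with Benjamini-Hochberg adjustment at 0.05, library size being the recovered total and low counts being removed by filterByExpr (minimum count 10). Each organ was fitted on its 6 libraries, and organ and interaction terms on all 12. Use within a family was tested with diffSpliceDGE. Alternatives were TMM factors (computed from single sequences), the miRBase total as library size, DESeq2 1.42.0, no filter, no precursor matches, a minimum count of 30, a replicate block, and leaving out each library. Shares were compared with two-sided exact permutation tests. The scripts were tested on simulated data.

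The text names the 4 families, the 3 most abundant sequences of each (5 for miR167), the top sequence of the other arm, and called sequences whose mean reached 1 RPM. The members, lists and rules were chosen with earlier results of these data known. Comparisons of shares between organs, of the miR167 and miR160 forms and of the paired precursor sequences were added after the data were seen. The 2 tables of sequences without a miRBase match and 12 columns that repeat the counts were not used, nor were the authors' own fold changes and p-values. Root and shoot libraries share replicate numbers, and the sources do not say whether they share pots. A family name is that of the matched entry, and reads from loci with identical sequence cannot be separated.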

Additional observations from a re-analysis of the deposited data

Results flagged for a closer look

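The miR167 21-nt form lay on opposite sides of its controls in the 2 organs: every low-Pi root library was above every root control, and every low-Pi shoot library was below every shoot control. The log2 ratio of the group means was 0.60 in root and -0.58 in shoot. The difference between the organs was not tested for this sequence. Such opposite sides were also seen in 2 shares of miR167 reads. The share of 23 to 25 nt reads differed by -0.31 percentage points between low Pi and control in root and by 0.33 points in shoot. That of 5′-arm sequences beginning 1 base upstream of the main start differed by -0.12 points in root and 0.32 points in shoot. The organ difference was not tested for these shares either. No other named sequence, family or share showed such a reversal, and single values were not searched for outlying libraries in groups of 3.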

How the results depend on the processing

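Leaving out 1 library at a time kept the direction and call of the organ differences of all 4 families. For the low-Pi change in root it gave log2 values of -0.68 to -0.20 for miR160, -0.51 to -0.14 for miR167, -0.46 to 0.00 for miR390 (0.0043 without control replicate 17) and -1.64 to -1.20 for miR393. In shoot it gave 0.07 to 0.35, -0.80 to -0.50, -0.15 to -0.01 and -0.31 to 0.092, and for the difference between organs 0.44 to 0.93, -0.54 to -0.17, -0.063 to 0.40 and 1.06 to 1.53. With TMM factors the root changes of miR160, miR167 and miR390 were 0.25, 0.38 and 0.38, with the miRBase total 0.20, 0.33 and 0.34, and with DESeq2 those of miR167 and miR390 were 0.079 and 0.069; miR393 stayed at -0.79, -0.81 and -1.11. These scalings move the median of all root families from -0.42 to between -0.07 and 0.25. In shoot miR167 was -0.74 with DESeq2, and miR390 and miR393 were 0.10 and 0.051 with the miRBase total. The low-Pi organ difference of miR167 was 0.19, 0.25 and -0.12 with TMM factors, the miRBase total and DESeq2. The difference between organs in the low-Pi change was -0.16 for miR160, -1.22 for miR167 and -0.61 for miR390 with TMM factors, -0.24 for miR390 with the miRBase total, and -0.96 and -0.35 for miR167 and miR390 with DESeq2. For miR393 this difference was 0.49, 0.87 and 0.78 with TMM factors, the miRBase total and DESeq2.

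Member sequences called in root numbered 1 with TMM factors, the miRBase total or DESeq2 (the miR167 21-nt form, higher, with none of the 3 lower calls kept), 1 with no filter (the 3′ form, lower), and 0 to 7, all lower, without 1 library. In shoot they numbered 3 with TMM factors or DESeq2, and 0 to 3 without 1 library (without low-Pi replicate 6, 2 of the 3 were higher). With TMM factors, the miRBase total and DESeq2, root log2 changes turned positive for the miR160 T form (0.38, 0.32 and 0.36), the miR167 A form (0.45, 0.39 and 0.42) and the miR390 main form (0.52, 0.48 and 0.49; without 1 library -0.36 to 0.083, the highest without control replicate 17). In shoot the miR160 A form was 0.17 and the miR390 main form 0.13 with the miRBase total. Without 1 library the shoot miR160 A form ranged from -0.17 to 0.10 (0.06, 0.10, 0.07 and 0.07 without control replicates 16 and 17 and low-Pi replicates 4 and 5), the miR390 main form from -0.11 to 0.014 (0.014 and 0.0069 without low-Pi replicates 4 and 5) and miR393 form 1 from -0.052 to 0.30. The low-Pi change in the share of the miR160 3′ arm in shoot was 2.04 percentage points without precursor matches, and that of miR393 form 1 in root -23.1 points among sequences whose mean reached 1 RPM. Where not given above, the cause was not tested. miR393 could not be tested in root without precursor matches, nor extended form 2 at a minimum count of 30. With a replicate block on the numbers shared by root and shoot libraries, the difference between organs was 0.65, -0.41, 0.19 and 1.33 for miR160, miR167, miR390 and miR393, no call on them changed, and calls over all families went from 13 to 10. Deviations of same-numbered root and shoot libraries correlated at -0.37 to 0.12, and 1 of 6 root libraries correlated best with its own number. Depth limits miR393 most, with 9 to 19 reads per root library.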
